A study of Saccharomyces cerevisiae with 22 samples.

Results

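Mitochondrial ribosomal protein genes of budding yeast were taken as every row of the deposited table whose standard gene symbol is MRPL, MRPS, MRP or RSM followed by a number. The rule found 66 of 6281 rows. By the universal names in the RefSeq gene table of the R64 assembly, 38 encode proteins of the large subunit and 26 of the small subunit. The table gives no such name to RSM22 or MRP8. Both are left out of the subunit counts and medians but are included wherever all members are counted. MRP10, which the same table also lists, was not analysed here.

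The mitochondrial ribosome is a separate ribosome inside the mitochondrion. In yeast it translates the few messages of the mitochondrial genome, most of which encode core subunits of the respiratory chain and the ATP synthase. Nearly all of its proteins are encoded by nuclear genes, made in the cytosol and imported. Names beginning uL or uS mark proteins found in ribosomes of all kingdoms, bL or bS those shared with bacteria, and mL or mS those found only in mitochondria. Glucose represses respiratory functions in budding yeast, while galactose represses them less.

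Expression was measured on 22 two-colour arrays from 3 chemostat cultures moved from galactose to glucose medium. Per the labels, sample RNA carried Cy5 and a reference pool of glucose and galactose RNA carried Cy3. The chemostat called no3AT was sampled without the drug at 305 and 316 h at galactose steady state, at 344, 353, 385 and 478 h in glucose, and at 507 and 526 h at glucose steady state. The chemostat called 40mM 3AT contained 40 mM 3-amino-1,2,4-triazole (3AT), which competes with the substrate of His3, an enzyme of histidine synthesis. It was sampled at 477 and 522 h at galactose steady state, at 552, 574, 592, 850 and 878 h in glucose, and at 937 h at glucose steady state. The chemostat called no3AT2 was sampled without the drug, once at galactose steady state, at 315 and 328 h in glucose, and 3 times at glucose steady state. Its RNA was polyA RNA, and that of the others total RNA. The labels name no strain; in the study as it is known, the only HIS3 copy was placed under the GAL1 promoter, in all cultures alike. Each chemostat is 1 culture, so its arrays are repeated samplings of that culture.

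Values are log ratios of sample over reference, taken as log2 because the base is not stated, with each array centred on its median. GAL7, a galactose-induced enzyme of galactose use, had a log2 change of -2.54 from galactose to early glucose (standard error, SE, 0.34), the direction that the dyes give. Arrays lacked between 138 and 1587 values (median 548). No 2 arrays were identical, and arrays of the same chemostat and stage correlated at r = -0.20 to 0.76 over rows (median 0.53, 13 pairs). Rows are ordered by systematic name, hence along each chromosome arm, and values of rows 2 apart correlated within an array at r = 0.19 to 0.66 (median 0.36). The median was 0.32 for rows 1 apart and 0.16 for rows 20 apart. In no3AT, rows 1 apart correlated at only -0.01 at 353 h and 0.12 at 385 h, where rows 2 apart gave 0.60 and 0.66. The comparisons below are therefore also given neighbour-corrected, which means after subtracting from each value the median of 20 rows around it. These are 10 on either side at steps of 2, so every second row up to 20 rows away, without the adjoining rows. After this correction the median correlation of rows 2 apart was 0.12, and that of rows 20 apart was below 0 on all 22 arrays (-0.24 to -0.06).

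Of the 66 members, 36 had a value on all 22 arrays. For the tests, early glucose means the first 2 hours labelled as glucose in every chemostat. A gene needed values on 80% of the 17 arrays of the galactose, early glucose and glucose steady-state stages, and at least 1 value for every stage of every chemostat. This left 4772 genes and 52 members, of which 29 belong to the large subunit and 21 to the small subunit, with RSM22 and MRP8. The 14 members not tested had between 2 and 20 values. They were MRP1, MRP2, MRPL3, MRPL4, MRPL10, MRPL15, MRPL20, MRPL23, MRPL39, MRPL40, MRPL50, MRPS17, MRPS18 and RSM19. Of these, 13 lie after row 3700, where 26 of the 66 members lie.

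As a group the mitochondrial ribosomal protein genes had medians between -0.33 and 0.32 around the centre of the arrays. The share of members above 0 ran from 29.0% at 850 h in 40mM 3AT to 68.1% at 328 h in no3AT2. Of all rows, 50% were above 0 on these arrays. In bulk RNA a lower level in all cells and the loss of a message from a share of the cells cannot be told apart. On the 6 arrays of no3AT before its glucose steady state, the median over members ran from 0.01 to 0.16, and at steady state it was 0.28 and 0.00. In 40mM 3AT the member medians were 0.03 and -0.04 in galactose, -0.07 and -0.33 at 552 and 574 h, 0.04, -0.20 and -0.11 at 592, 850 and 878 h, and -0.11 at 937 h. All arrays of 40mM 3AT except those at 477 and 592 h thus had a member median below 0. In no3AT2 the median was 0.11 in galactose, 0.29 and 0.32 at 315 and 328 h, and 0.20, 0.09 and 0.02 at glucose steady state, above 0 on all 6 arrays. The widest departures by subunit were -0.47 for the large subunit at 574 h in 40mM 3AT, where the small subunit stood at -0.20, and 0.77 for the small subunit at 315 h in no3AT2, where the large subunit stood at 0.18. Neighbour-corrected, these values were -0.56, -0.23, 0.65 and 0.14. The corrected medians over all members ran from 0.07 to 0.20 in no3AT, from -0.42 to 0.02 in 40mM 3AT, where 7 of 8 were below 0, and from 0.06 to 0.32 in no3AT2. Over the 22 arrays the medians of the large and the small subunit correlated at r = 0.56 (0.61 neighbour-corrected), points that share their array and its centring.

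**Figure D1:**
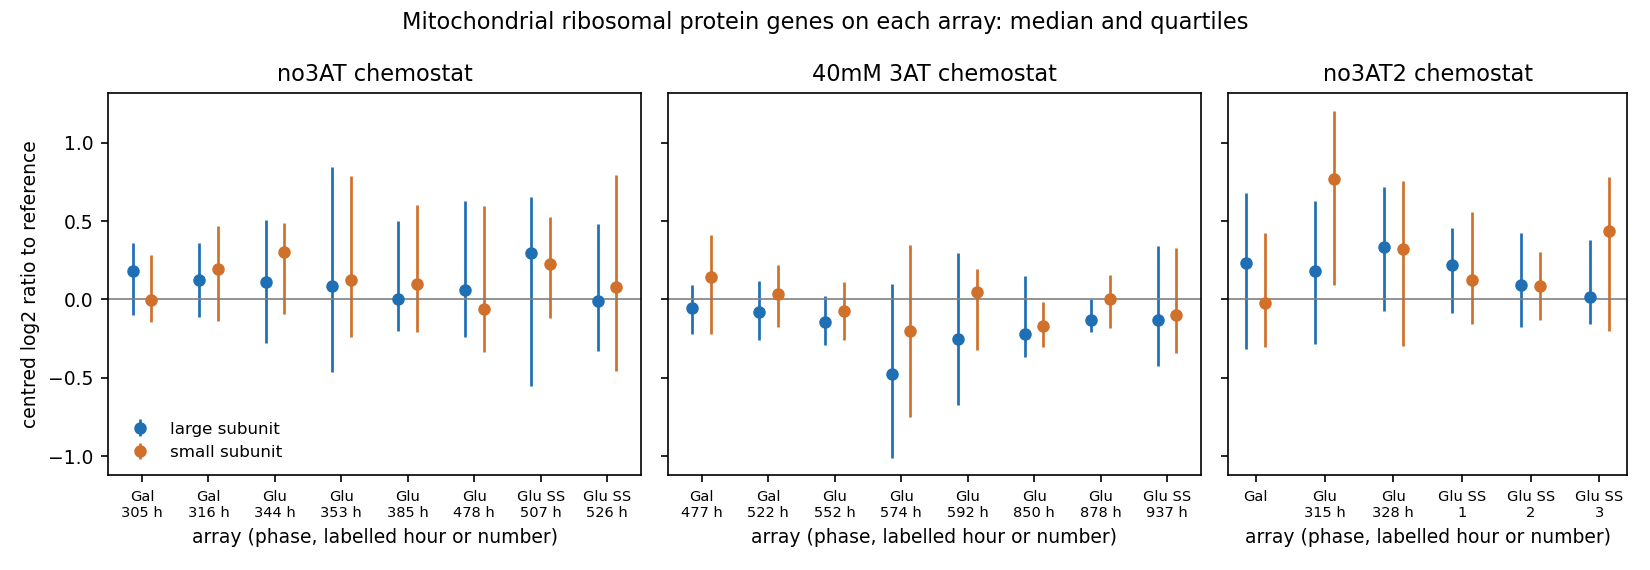
Median (point) and quartiles (bar) of the centred log2 ratios of the large-subunit and small-subunit genes on each of the 22 arrays, by chemostat and in the order of the labelled stages. The large subunit was lowest at 574 h in 40mM 3AT (-0.47) and the small subunit highest at 315 h in no3AT2 (0.77).

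Members followed one another loosely. Over the 22 arrays, each member with at least 18 values was correlated with the median of the other members. The median r was 0.29 for 57 members, of which 43 were above 0. It was 0.32 within the large subunit (n = 32) and 0.21 within the small subunit (n = 23). The cytosolic ribosomal protein genes, treated the same way, gave 0.83 (n = 126), and genes of the respiratory chain and ATP synthase gave 0.50 (n = 36). All other rows correlated with the members' median at a median r of -0.04 (n = 5169). These correlations describe arrays that share a reference pool and whose rows share position effects; neighbour-corrected, the member median was 0.35, that of cytosolic ribosomal proteins 0.81 and that of the respiratory chain 0.56.

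The values of single members show how far they departed from that centre. Those given are the members with the highest and lowest changes from galactose in the comparisons of early glucose and glucose steady state below. Their separation of galactose from glucose arrays thus follows in part from that choice and is no separate support. The share of all genes that separate in this way was not computed. MRPL8 (YJL063C), a large-subunit protein named bL17m, read 0.10 and 0.75 in galactose in no3AT, -1.36 and -2.11 at 344 and 353 h, -1.77 and -1.82 at 385 and 478 h, and -2.41 at 526 h. In 40mM 3AT it read 0.63 and 1.12 in galactose, 0.61 and -1.49 at 552 and 574 h, -1.42, -0.26 and 0.00 at 592, 850 and 878 h, and -0.66 at 937 h. In no3AT2 it read 1.80 in galactose, -1.93 at 315 h, and -1.83, -0.83 and -1.34 at glucose steady state. MRPL8 had no value at 507 h in no3AT or at 328 h in no3AT2. It was above 0 on all 5 galactose arrays and, among the glucose arrays with a value, above 0 on the one at 552 h only. Galactose and glucose steady state did not overlap in any chemostat.

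MRPS5 (YBR251W), the small-subunit protein uS5m, read -0.25 and 0.58 in galactose in no3AT, -0.62 and -0.18 at 344 and 353 h, -1.12 and -1.31 at 385 and 478 h, and -0.89 and -1.67 at glucose steady state. Its values in 40mM 3AT were 1.37 and 0.68, then 0.16 and -1.32, then -1.78, -0.31 and -0.17, then -0.50, in the same order of stages. In no3AT2 they were 1.33 in galactose, -0.76 and -0.10 at 315 and 328 h, and -0.90, -0.34 and -0.67 at steady state. MRPS5 was lower at glucose than at galactose steady state on every array of each chemostat. In no3AT the 2 early arrays overlapped the galactose arrays.

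MRPL36 (YBR122C), the large-subunit protein bL31m, read -0.17 and 0.13 in galactose in no3AT, -0.58 and -0.48 at the 2 early hours, -0.54 and 0.06 at 385 and 478 h, and -0.97 and -0.76 at steady state. The array at 478 h stood at the galactose level, with the steady-state arrays again below it. In 40mM 3AT the values were 0.89 and 0.36, then 0.32 and -1.27, then -1.14, -0.43 and -0.24, then -0.72. In no3AT2 they were 1.14, then -0.55 and -0.10, then -0.51, 0.09 and -0.12. Galactose was above all glucose arrays in these chemostats, by little at 552 h.

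RSM7 (YJR113C), the small-subunit protein uS7m, moved the other way. It read -0.15 and -0.27 in galactose in no3AT, 0.49 and -0.07 at 344 and 353 h, 0.59 and 1.34 at 385 and 478 h, and 0.96 and 1.13 at steady state. In 40mM 3AT it read -0.24 and -0.08 in galactose, -0.34 and 0.53 at the early hours, 0.19, 0.06 and 0.16 later, and 1.26 at 937 h. In no3AT2 it read -0.24 in galactose, 1.55 and 0.76 at the early hours, and 0.69, 0.39 and 0.66 at steady state. RSM7 was below 0 on all 5 galactose arrays and above 0 on all 6 glucose steady-state arrays.

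MRP35 (YNL122C), the large-subunit protein bL35m, read 0.02 and -0.49 in galactose in no3AT, -0.17 and -0.67 early, 0.50 and -0.18 later, and -0.26 and -0.01 at steady state. In 40mM 3AT it read -0.58 and -0.22, then -0.25 and -1.06, then -0.30, -0.34 and -0.31, then 0.30. In no3AT2 it read -0.65, then 0.73 and 0.35, then 1.14, 0.03 and 1.04. Galactose and glucose steady state overlapped in no3AT, and steady state was the higher in the other cultures.

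MRPS8 (YMR158W), the small-subunit protein uS8m, read 0.50 and -0.45 in galactose in no3AT, 0.01 and -0.56 early, 0.67 and -0.76 later, and 0.45 and -0.28 at steady state. Its values in 40mM 3AT were -0.37 and -0.22, then -0.19 and -0.20, then 0.18, -0.10 and -0.18, then 1.16, so it was high only at 937 h there. In no3AT2 they were 0.02, then 0.19 and -0.30, then 0.67, 0.31 and 1.06. The galactose and steady-state arrays of no3AT overlapped over nearly their whole range.

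MRPL13 (YKR006C), the large-subunit protein mL50, read 0.21 and -0.09 in galactose in no3AT, 0.50 and 0.97 early, 0.10 and 0.78 later, and 0.66 and 0.18 at steady state. In 40mM 3AT it read -0.22 and -0.27, then -0.36 and 0.63, then 0.30, 0.17 and -0.03, then 0.25. In no3AT2 it read -0.37, then 1.36 and 0.78, then 0.52, 0.39 and -0.13. The array at 552 h was the one early array not above its galactose arrays.

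MRPL44 (YMR225C), the large-subunit protein mL53, read 0.46 and -0.70 in galactose in no3AT, 0.16 and 0.85 early, -0.20 and -0.24 later, and 0.72 and -1.03 at steady state. In 40mM 3AT all its values lay between -0.31 and 0.00. In no3AT2 it read -0.32, then 1.85 and 1.00, then 0.86, 0.53 and 0.13. Its 2 highest values were thus those of the early arrays of no3AT2.

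The neighbour correction changed some of these patterns. Corrected, MRPL8 and MRPS5 were still below their galactose arrays on every steady-state array with a value, and RSM7 was still above them. MRPL36 read 0.28 at 507 h in no3AT, above its galactose arrays there (at most 0.07), and 0.04 or less on the other steady-state arrays, below the galactose arrays of their own cultures. MRP35 was then above its galactose arrays on all steady-state arrays, no3AT included, while MRPS8 still overlapped in no3AT. MRPL44 read 2.34 and 1.15 at the early hours of no3AT2, and MRPL13 1.38 and 1.16.

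**Figure D2:**
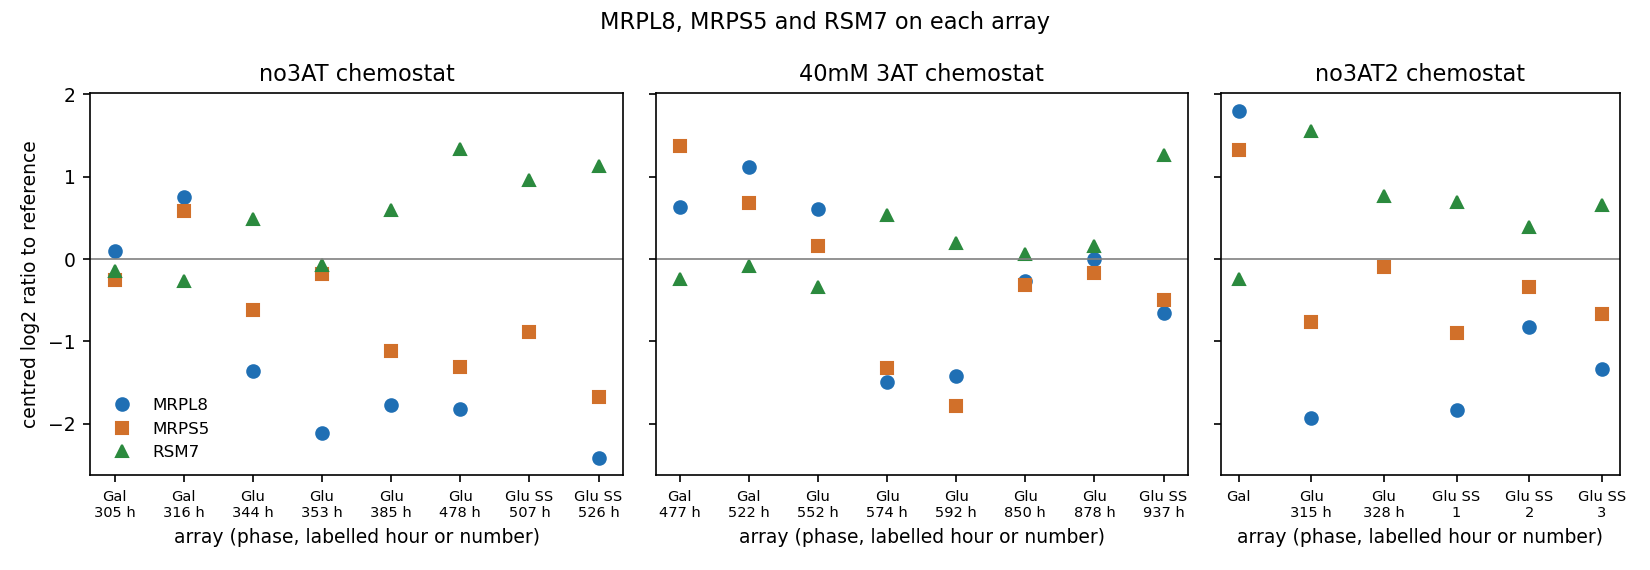
Centred log2 ratios, not neighbour-corrected, of MRPL8, MRPS5 and RSM7 on each array, by chemostat and labelled stage (MRPL8 lacks 2 values). MRPL8 and MRPS5 lay below their galactose arrays at glucose steady state in all 3 chemostats, and RSM7 lay above them. The genes were chosen for their changes between these stages.

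The comparison of early glucose with galactose asks which members had changed by the 2 lowest labelled hours in glucose. It used the mean of each chemostat and stage, with the chemostat as the unit of replication and as a block (limma, Benjamini-Hochberg adjustment over 4772 genes, threshold 0.05). Of the 52 members, 4 fell and none rose, where 6.73% of all genes fell and 0.231% rose. MRPL8 fell by 2.41 on the log2 scale (SE 0.38, limma adjusted p = 0.0087). MRPS5 fell by 1.31 (SE 0.30, adjusted p = 0.0194). MRPL37, the large-subunit protein mL54, fell by 1.07 (SE 0.27, adjusted p = 0.0290), and MRPL36 fell by 1.03 (SE 0.28, adjusted p = 0.0393). Each was lower in 3 of 3 chemostats, which describes the means that the fit used and is no separate test.

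The median change of the members was -0.07, against 0.03 over all genes, with 31 members below 0 and 21 above. Their standard deviation (SD) was 0.62, against 0.58 over all genes, and 19.2% of members against 23.3% of genes had an unadjusted p under 0.05. The large subunit had a median of -0.12 (17 of 29 below 0) and the small subunit one of -0.04 (12 of 21). The next decreases did not pass: MRPL51 (mL43) had a change of -0.83, MRPL49 (bL21m) -0.83 and RSM10 (uS10m) -0.79. The highest values did not pass either and were those of MRPL13 at 0.83 (adjusted p = 0.098), MRPL44 at 0.77, RSM7 at 0.69, MRPL25 (mL59) at 0.61 and RSM18 (bS18m) at 0.60.

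Neighbour-corrected, none of the 52 members passed, and none of the 4772 genes did (limma). The lowest adjusted p of a member was 0.16, 8 members and 16.5% of all genes had an unadjusted p under 0.05, and the members' median was -0.01. Single arrays also set this count: it was 0 when the array at 574 h or the galactose array of no3AT2 was dropped, as it was for all genes (0.0%). It was 1 when the no3AT array at 316 or at 344 h was dropped (3.28% and 3.48% of genes fell), and 2 when that at 507 h or, in 40mM 3AT, at 937 h was dropped (3.87% and 4.65%). Dropping the array at 552 h left 4, where 8.67% of genes fell and 1.7% rose.

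Glucose steady state against galactose steady state asks what had changed once each culture had settled on glucose. Here 9 of the 52 members fell and 1 rose, where 12.8% of all genes fell and 4.59% rose. MRPL8 fell by 2.50 (SE 0.38, limma adjusted p = 0.0028) and MRPS5 by 1.65 (SE 0.30, adjusted p = 0.0033). The others that fell were MRPL36 (-1.17, adjusted p = 0.0128), MRPL27 (mL41, -1.13), MRPL32 (bL32m, -1.08), MRPL49 (bL21m, -1.06), MRPS9 (uS9m, -0.98), MRPL37 (mL54, -0.96) and RSM10 (uS10m, -0.87), with adjusted p-values from 0.0128 to 0.0361. RSM7 rose by 1.16 (SE 0.33, adjusted p = 0.0267). All 10 moved the same way in 3 of 3 chemostats, which again describes the means that the fit used.

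Of the 9 members that fell, 6 belong to the large subunit and 3 to the small subunit. The median change was 0.04 over the members and 0.03 over all genes, with 26 members on each side of 0. The SD was 0.72 against 0.70, and 38.5% of members against 34.5% of genes had an unadjusted p under 0.05. The medians by subunit were 0.10 for the large subunit (13 of 29 below 0) and -0.04 for the small subunit (12 of 21 below 0).

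Further members had sizeable values that did not pass. RSM28 (mS46) stood at -0.83 (limma adjusted p = 0.065). On the other side MRP35 and MRPS8 stood at 0.73, MRPL38 (uL14m) at 0.70, RSM27 (mS33) at 0.69, MRP17 (bS6m) at 0.65, MRPS35 (mS45) at 0.63, MRPL19 (uL11m) at 0.60, RSM18 (bS18m) at 0.56 and MRPS12 (uS12m) at 0.52. Their adjusted p-values ran from 0.088 to 0.25.

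No member passed at glucose steady state once neighbour-corrected (limma), where 8 of all genes rose (0.168%) and 15 fell (0.314%); 8 members and 20.1% of genes had an unadjusted p under 0.05. MRPL8 then had a change of -1.60 (adjusted p = 0.073), MRPS5 -0.91 (0.085) and RSM7 0.99 (0.117). The other members that had fallen had neighbour-corrected changes between -0.50 and 0.07. MRPL32 was the one above 0. The SD over members was 0.50, as it was over all genes.

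The steady-state count depended on single arrays as well. It was 3 when the array at 552 h was dropped, where 6.54% of genes fell and 0.968% rose, and also 3 when the galactose array of no3AT2 was dropped (5.05% of genes fell). It was 4 on dropping the no3AT array at 316, 344 or 507 h or the 40mM 3AT array at 937 h, where 8.22%, 7.01%, 8.57% and 6.43% of genes fell. The share of all genes that fell was thus lower in each of these fits too. MRPL8, MRPS5 and MRPL36 were the members past the threshold without the array at 552 h. Without the galactose array of no3AT2 the members' median change was -0.28. RSM7 no longer passed without the arrays at 344, 552, 574 or 937 h, or without the galactose array or that at 328 h of no3AT2.

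Glucose steady state compared with early glucose gave no member and no gene past the threshold (0.0% in each direction, limma), with 7 of 52 members and 7.17% of all genes at an unadjusted p under 0.05. The members' median was -0.08, against -0.03 over all genes. The highest values were those of MRPL51 (mL43) at 0.91, MRPS8 at 0.82 and MRPL38 (uL14m) at 0.74, and the lowest those of MRP13 (mS44) at -0.94, MRPS9 at -0.69 and MRPL16 (uL16m) at -0.68, each with an adjusted p of 0.68. Neighbour-corrected, no member passed and none had an unadjusted p under 0.05, as 3.14% of genes had.

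The members were also compared with the rows around them. The change of a member was set against the change in the median of its 20 neighbouring rows. Across the 52 members these correlated at r = 0.74 in early glucose, 0.75 at glucose steady state and 0.82 for the difference of these stages. The rows of tested genes, 4751, 4750 and 4750 in the same order, gave 0.63, 0.70 and 0.65. The member and its neighbours had the same sign for 40, 43 and 44 of the 52 members. That is 76.9%, 82.7% and 84.6%, against 71.6%, 77.6% and 74.6% of those rows. Members are different genes, but those close in the file share neighbours.

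**Figure D3:**
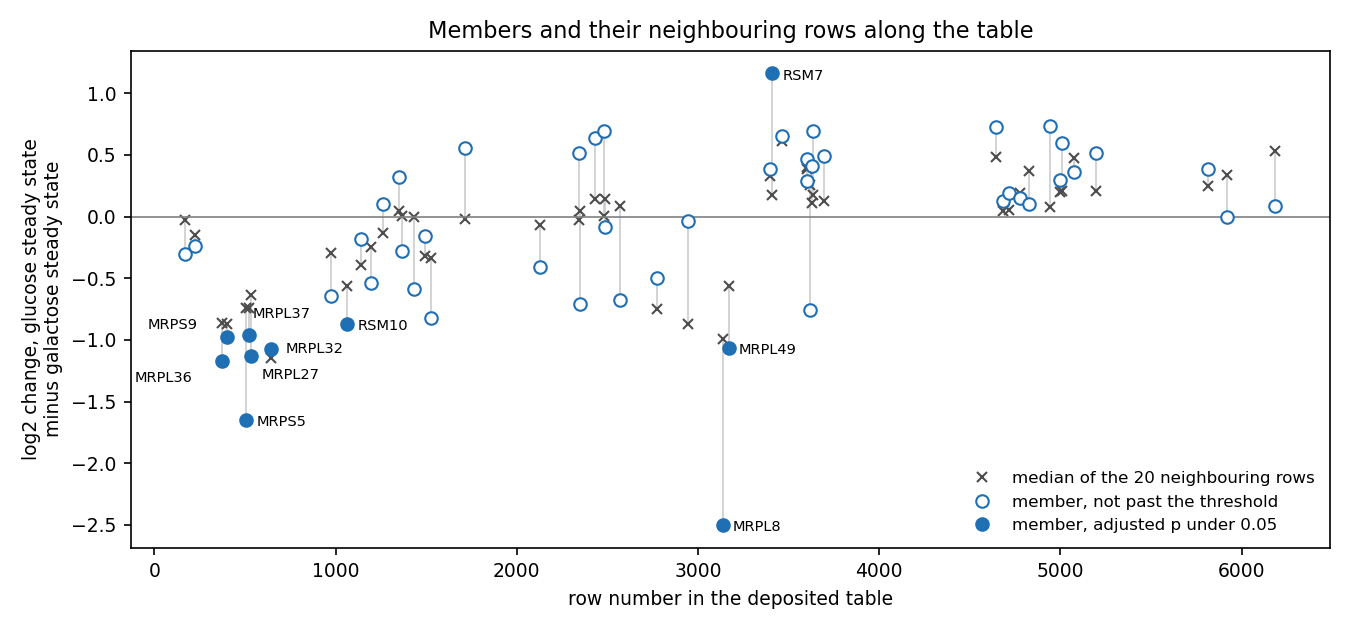
Log2 change at glucose steady state against galactose of the 52 tested members by row number in the deposited table. Crosses give the change in the median of the 20 neighbouring rows, and filled points the 10 members past the threshold. The 9 members that fell lie where the neighbouring rows are also below 0, with neighbour medians from -1.15 to -0.56.

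All 9 members that fell at steady state lie on 4 chromosome arms. On the right arm of chromosome II all 5 tested members fell (MRPL36, MRPS9, MRPS5, MRPL37 and MRPL27, -1.65 to -0.96), and the 285 other genes tested there had a median of -0.56 with 27.7% fallen. On the left arm of chromosome X both members fell (MRPL8 and MRPL49), beside 213 other genes with a median of -0.85 and 45.5% fallen. MRPL32, the 1 member on the right arm of chromosome III, fell beside 116 genes with a median of -0.80 and 44.8% fallen. RSM10 was the 1 of 9 members on the right arm of chromosome IV that fell, where 52 of the other 471 genes fell and their median was -0.21.

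On the other 16 arms with tested members no member fell. The members' median was above 0 on 10 of these arms and below 0 on 6, and on the same side of 0 as the median of the arm's other genes on 15. The exception was the left arm of chromosome VIII, where MRP4 stood at -0.68 beside 0.06 for 45 others. The 6 members on the left arm of chromosome XI had a median of 0.44 beside 0.37 for the 158 other genes, and none fell. The 5 on the left arm of chromosome XIV had 0.37 beside 0.34 for 219 others, and none was below 0. The 4 on the right arm of chromosome XIII had 0.17 beside 0.51 for 220 others. The change of RSM7, 1.16, stood beside a neighbour median of 0.18. MRPL8, with -2.50, stood beside -0.99. The part of row position in the calls was not tested beyond the neighbour correction. The parts of arm and of array position in it were not tested either, because the spots' places on the array are not given.

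Before correction, pairs of members close together in the file had higher correlations than distant pairs, and after correction they had the lowest. Subtracting a median taken over nearby rows lowers the correlation of near rows by itself. The fall and the order after correction are therefore no result about the members. No test was made. For the 18 pairs within 20 rows, which involve 24 members, the median correlation over arrays was 0.43 before and 0.05 after correction. The 134 pairs 21 to 200 rows apart had 0.26 and 0.12, and the 1872 more distant pairs 0.04 and 0.13.

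Single pairs differed. MRPL37 and MRPL27, 14 rows apart, went from 0.82 to 0.40, and RSM26 (mS42) and RSM7, 12 rows apart, from 0.54 to -0.03. MRPL22 (uL22m) and MRPL19 (uL11m), 8 rows apart, kept 0.72 after 0.75 (18 arrays). MRP49 (mL61) and MRPL38 (uL14m), 3 rows apart, had 0.47 and 0.73 (20 arrays). MRPS12 (uS12m) and RSM19 (uS19m), which are adjoining rows, had 0.50 and 0.45 (17 arrays). RSM22 and MRPL38, 15 rows apart, ran opposite, at -0.68 and -0.79 (17 arrays); RSM22 is a putative methyltransferase linked to the mitochondrial small subunit.

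Within single chemostats fewer members passed, in a fit of the 17 arrays in which p-values reflect only how far samplings of 1 culture differ. In early glucose no member passed in no3AT or in 40mM 3AT, and no gene did (0.0% in each direction, limma); 3 and 4 members had an unadjusted p under 0.05, beside 11.4% and 9.79% of genes. In no3AT2, 2 members fell, where 0.524% of all genes fell, none rose and 24.1% had an unadjusted p under 0.05 (17 of 52 members): MRPL8 with a change of -3.74 (SE 0.79, limma adjusted p = 0.040) and MRPL51 with one of -2.43 (SE 0.52, adjusted p = 0.036). For MRPL8 that change is 1 array minus 1 array, -1.93 at 315 h against 1.80 in galactose. The spread behind its p-value thus comes from its other stages and cultures and from other genes. MRPL51 read 1.20 on the 1 galactose array there, -1.66 and -0.80 at the early hours, and 0.01, 0.65 and -0.19 at steady state. In no3AT and in 40mM 3AT its early change was -0.02 and -0.03.

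At glucose steady state MRPL8 fell by 3.14 in no3AT2 (SE 0.65, limma adjusted p = 0.034), where 1.4% of all genes fell and 0.021% rose. No other member passed in any chemostat, beside 0.0838% of genes that fell in no3AT and none in 40mM 3AT. An unadjusted p under 0.05 was found for 11, 8 and 11 members in no3AT, 40mM 3AT and no3AT2, and for 14.9%, 15.9% and 15.8% of genes. Its change was -2.84 in no3AT (adjusted p = 0.073) and -1.53 in 40mM 3AT (adjusted p = 0.295). MRPS5 had -1.45, -1.53 and -1.97, and RSM7 had 1.25, 1.42 and 0.82, in no3AT, 40mM 3AT and no3AT2.

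The members' median change in early glucose was -0.05 in no3AT, -0.22 in 40mM 3AT and 0.23 in no3AT2, beside 0.00, -0.01 and -0.05 over all genes. At steady state it was -0.13, -0.28 and 0.21, beside -0.04, -0.08 and 0.11. In no3AT2 the small subunit had an early median of 0.41 (15 of 21 above 0) and the large subunit one of -0.12 (14 of 29 above 0). Neighbour-corrected medians over all members were -0.08, -0.28 and 0.16 in early glucose. The polyA RNA of no3AT2 and the total RNA of the others cannot be told apart from the cultures.

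**Figure D4:**
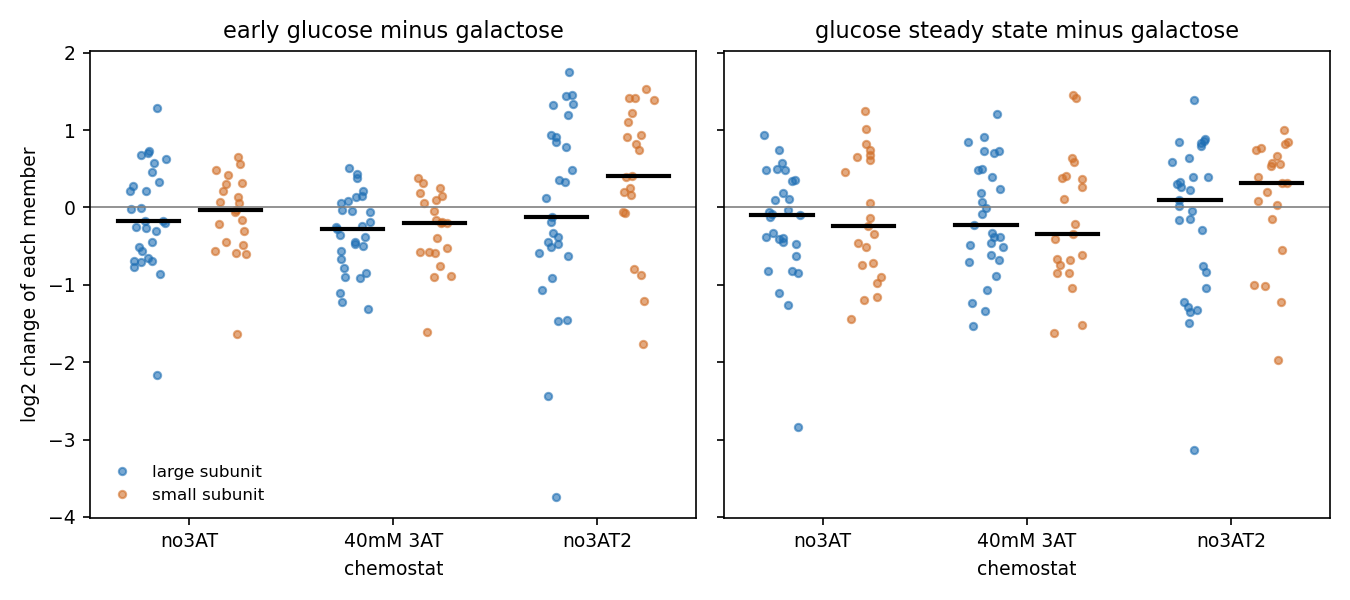
Log2 change from galactose to early glucose and to glucose steady state in each chemostat, each point 1 of the 29 tested large-subunit or 21 tested small-subunit genes, with the median of each subunit as a black line. The highest median was that of the small subunit in early glucose of no3AT2 (0.41), where the large subunit stood at -0.12.

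Neighbour-corrected, other members passed in the early glucose of no3AT2: RSM27 (mS33) rose by 1.67, MRPL13 by 1.66 and MRPL44 by 2.11, while MRP4 (uS2m, -1.59) and MRPL51 (-1.98) fell, with limma adjusted p-values from 0.019 to 0.038. All genes rose in 1.76% and fell in 2.37% of cases there. MRPL51 was the 1 member past the threshold with and without the correction. With 5 rows on each side in place of 10, a setting added after seeing the data, MRPL51 alone fell and no member rose (0.629% of genes rose and 1.3% fell).

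The array at 552 h in 40mM 3AT stood nearer to galactose than the next one for several members. MRPL8, MRPS5 and MRPL36 read 0.61, 0.16 and 0.32 at 552 h and -1.49, -1.32 and -1.27 at 574 h. Without that array, early glucose in 40mM 3AT rests on 1 array, assumed to vary like the others, and 13 members fell and 1 rose, where 17.7% of all genes fell and 10.4% rose. Among those that fell were MRPL8 (-2.37), MRPS5 (-2.35), MRPL36 (-1.90) and MRPL37 (-1.88), while MRPL35 (mL38) rose by 1.15 (limma adjusted p = 0.043). In no3AT2, whose arrays were the same, 6 members then rose and 4 fell in early glucose (2.88% and 7.87% of all genes).

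Differences between the chemostats were tested directly, in the same fit as the changes within chemostats. Each sets 1 culture against 1 culture, and its p-values reflect only how far samplings of a culture differ. In 40mM 3AT minus no3AT the drug cannot be told apart from the culture. The early or the steady-state change of 40mM 3AT minus that of no3AT passed for no member and for no gene (0.0% in each direction, limma); 1 and 0 of 52 members had an unadjusted p under 0.05, beside 2.91% and 1.72% of all genes. For no3AT2 minus no3AT no member passed either; 0.105% of all genes were lower in early glucose, and 4 and 2 members had an unadjusted p under 0.05, beside 13.1% and 2.85% of genes. The member furthest on the adjusted scale was MRPL51, with a difference of -2.41 in early glucose (SE 0.67, adjusted p = 0.154). RSM25 (mS23) differed by 2.85 the other way (SE 0.96, adjusted p = 0.223); in no3AT it read 1.28 at 316 h and then 0.76 and -1.47, and in no3AT2 it read -0.64 and then 0.96 and 0.20. Neighbour-corrected, no member passed in any of these 4 differences (limma; 0.105% of genes were lower in no3AT2 than in no3AT in early glucose, and none passed otherwise). An unadjusted p under 0.05 was then found for 2 and 1 members in 40mM 3AT minus no3AT (3.33% and 2.39% of genes) and for 11 and 1 in no3AT2 minus no3AT (15.1% and 4.67%). Uncorrected, the median difference over members was -0.20 for 40mM 3AT minus no3AT in early glucose and 0.39 for no3AT2 minus no3AT, the latter with 0.68 in the small subunit and 0.14 in the large subunit. Both comparisons use the galactose and early arrays of no3AT.

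Other genes of mitochondrial translation were read from lists by function, beside the 6.73% of all genes that fell in early glucose and the 12.8% that fell at steady state. Of 12 mitoribosomal protein genes named otherwise, 10 were tested. IMG2 fell by 1.05 in early glucose and by 1.13 at steady state (adjusted p = 0.033 and 0.0140), and IMG1 fell by 1.04 at steady state (adjusted p = 0.022). The list's median was -0.32 in both comparisons. IMG1 and IMG2 lie on the right arm of chromosome III with MRPL32.

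Of 23 translation factors and activators, 14 were tested and 2 fell in each comparison. CBP6, needed for translation of cytochrome b mRNA, fell by 1.28 and 1.31 (adjusted p = 0.016 and 0.0079), and AIM23, a mitochondrial initiation factor, by 1.20 and 0.93 (adjusted p = 0.024 and 0.041). Neighbour-corrected, CBP6 had changes of -0.62 and -0.50 that did not pass (limma adjusted p = 0.22 and 0.25), and AIM23 did not pass either. TUF1, the mitochondrial elongation factor Tu, had an uncorrected early change of 0.88 that did not pass (adjusted p = 0.13). The medians of the list were 0.13 and 0.09.

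None of the 9 tested mitochondrial aminoacyl-tRNA synthetases passed (medians -0.01 and -0.05). Among 6 tested genes of mitoribosome assembly and membrane anchoring, MTG2, a mitochondrial GTPase of large-subunit assembly, fell by 1.56 at steady state (adjusted p = 0.0084). GEP3, also known as MTG3, which acts on the small subunit, had changes of 0.78 and 0.58 that did not pass.

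Of 36 tested nuclear genes of the respiratory chain and ATP synthase, COX5B fell in both comparisons (-1.10 and -1.23) and ATP16 at steady state (-1.30), and none rose. Their median was -0.41 in early glucose, with 30 of 36 below 0, and -0.22 at steady state, with 23 of 36 below 0. Neighbour-corrected, these medians were -0.41 and -0.30, where the 52 mitoribosomal members had -0.01 and 0.00.

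Of 123 tested cytosolic ribosomal protein genes, none passed in early glucose and 1, RPS22B, rose at steady state by 0.92 (adjusted p = 0.043), with medians of 0.19 and -0.19. Neighbour-corrected, no gene of any of these 6 lists passed in early glucose or at steady state. The lists were not tested against each other.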

How the data were processed

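Cy5 sample RNA and a Cy3 reference pool were compared on 22 arrays. The deposited values were treated as log2 ratios; no source used here gives the log base or the authors' background correction, normalization or spot filters. Per the labels, RNA came from hot phenol extraction. Row IDs were matched to the R64 RefSeq gene table (5763 of 6281 rows, 57 by synonym). The 76 rows sharing a gene were averaged, leaving 6242 genes, and each array was centred on its median. No coordinates are printed, since no genome build is stated for the arrays.

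The tests used limma (version 3.58.1, R version 4.3.3). Shared changes were fitted to 9 means, 1 for each stage of each chemostat, with a chemostat block (4 residual and 10.6 prior degrees of freedom), and per chemostat on 17 arrays (8 and 11.5), two-sided with Benjamini-Hochberg adjustment over all genes tested. A stage with 1 array was assumed to vary like the others. The 5 later glucose arrays entered only the alternative that took all glucose arrays before steady state as early glucose. The fit was run on simulated data with independent noise for each gene and array. Those data held no chemostat or row-position effects, so the check cannot show how the fit handles these. Depth is unknown, and the number of arrays limits the precision.

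Genes named are up to 10 members with the largest increases and decreases per comparison, with values on every array for the extremes, up to 3 genes of each other list, and members past the threshold in single chemostats or in the pairs and differences described, the last chosen after their values were seen. The members and lists were chosen with earlier results of these data known. Alternatives covered centring, normalization, filters, rows of one gene, moderation, units, block, stage definitions, arrays, chemostats and neighbour correction.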

Additional observations from a re-analysis of the deposited data

Results flagged for a closer look

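Checks for an array far from the rest covered 22 sets of arrays, each of one gene or group median in one chemostat and label. Of these, 3 were flagged. For repeat samples chance alone flags about 1 in 20, but the arrays of these sets are different hours of one culture. MRPL36 in the glucose arrays of no3AT before steady state read 0.06 at 478 h, above the other values of that set. MRP35 in the corresponding arrays of 40mM 3AT read -1.06 at 574 h, below the rest. MRPS8 read 0.18 at 592 h in the same arrays, above the rest.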

How the results depend on the processing

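The changes of the named members gave 1425 values under the alternatives with the direction and side of the threshold kept, 184 that no longer passed, 18 that newly passed and 9 that changed sign. Neighbour-corrected, MRPL32 changed sign in both comparisons with galactose: in early glucose to 0.24, also with members left out of the neighbours, 0.18 with 5 rows each side and 0.34 also without the array at 552 h, and at steady state to 0.073, 0.073, 0.033 and 0.073. MRP49 changed sign to -0.0045 in early glucose, neighbour-corrected without that array. The settings with 5 rows or both steps were added after seeing the data.

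The count of members that fell in early glucose (4, beside 6.73% of genes) was 0 under all 5 neighbour-corrected settings, without the chemostat block and with the lowest hour only, where no gene passed, and without 40mM 3AT (0.0647% of genes). It was 2 with quantile normalization (4.0% of genes) and without no3AT (2.76%), and 1 without no3AT2 (2.27%). The count that fell at steady state (9, beside 12.8%) was 0 under the 5 neighbour-corrected settings (0.377% of genes at most), 3 without the block (7.21%) and without the array at 552 h (6.54%), 4 with the lowest hour only (7.6%) and without no3AT (6.19%), and 2 without 40mM 3AT (3.47%). It was higher, at 11, with quantile normalization (716 of 4772 genes) and with all glucose arrays before steady state (16.3%), and 10 with trended moderation (715 genes) and with arrays as units (13.2%). The count that rose at steady state (1, beside 4.59%) was 2 with quantile normalization (10.5%), with all glucose arrays before steady state (8.63%) and without no3AT2 (8.8%), and 0 with the lowest hour only (0.683%), without the array at 552 h (0.968%), without no3AT (1.7%), without 40mM 3AT (0.0216%) and under the 5 neighbour-corrected settings (0.293% at most). From early glucose to steady state, leaving out no3AT2 gave 1 member that fell (2.3% of genes) and a median of 0.14.

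Leaving out 1 array at a time, 0 to 6 members fell in early glucose and none rose, 3 to 10 fell and 0 to 3 rose at steady state, and the medians ran from -0.13 to -0.01 and from -0.28 to 0.071, and from -0.18 to 0.08 between the glucose stages.

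Within chemostats, without the array at 552 h, 13 members fell and 1 rose in early glucose of 40mM 3AT (17.7% and 10.4% of genes), and with the neighbour correction as well 11 and 3 (12.5% and 14.2%). In the same order, 1 and 1 fell in early glucose of no3AT (0.547% and 0.505%). In that of no3AT2, 4 and 5 fell (7.87% and 6.9%) and 6 and 7 rose (2.88% and 5.66%). At steady state, 2 and 1 fell in no3AT (3.95% and 1.37%), where 1 rose under the first (0.337%), and 3 and 2 fell in no3AT2 (6.69% and 3.81%). The neighbour correction alone gave 3 that rose in early glucose of no3AT2 (1.76%) and 0 that fell at its steady state (0.335%). With 5 rows each side, 0 rose and 1 fell in its early glucose (0.629% and 1.3%) and 0 fell at its steady state (0.021%). For early no3AT2 minus no3AT, 1 member was higher and 1 lower (0.252% and 2.17%) when neighbour-corrected without the array at 552 h. Counts can shift without the array at 552 h in cultures whose arrays were the same, since the fit takes 1 spread per gene over all cultures. MRPL8 in early glucose of no3AT2 kept its change of -3.74, while its SE went from 0.79 to 0.58. Any further cause of these shifts was not tested. The chemostat block pairs the stages of each culture. No paired analysis was possible because replicate numbers, beyond that block, only name arrays of different hours and cultures. Missing values and the single arrays of some stages limit every count.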
